A study of Caenorhabditis elegans with 146 samples.

Results

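The distal end of the C. elegans gonad was compared with the fertilized egg, the first and the last stages of the oogenesis series. The distal segment (S1) holds the mitotic germ cells and the transition zone, where cells enter meiosis, and the zygote (P0) was collected once its pronuclei had fused at the center of the cell. Stages were taken from the sample labels, and the libraries kept were those that the deposited quality table marks as used for analysis, 19 from S1 and 6 from P0, or 25 of 146 libraries in all. Both groups came from well-fed gravid hermaphrodites of strain AZ212, which carries a histone H2B-GFP transgene under the pie-1 promoter, immobilized in tetramisole before dissection. Each library was made from 1 piece of tissue or 1 cell. An S1 piece also carries the distal tip cell and part of the sheath that wraps the gonad, whereas a zygote is a single cell. No worm named in the labels gave both a used S1 and a used P0 library. The labels give the worms of the zygotes unknown5, unknownA and unknownB as unknown.

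Germ cells of the worm divide at the distal end, enter meiosis, and fill with RNA and yolk as they move proximally. In mitotic and early meiotic germ cells the X chromosome is kept largely silent, and its genes are switched on later, in oocytes. The RNA of the oocyte is stored, often untranslated, and the 1-cell embryo makes almost no RNA of its own, so its first divisions run on what the mother supplied.

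Batch A holds 15 of the S1 and 4 of the P0 libraries and batch B the remaining 4 and 2. Libraries were made with a modified Tang protocol or with Smart-seq2, and the study's own descriptions differ on which of them goes with which batch, so the protocol of a batch is not given here. Reads on genes ranged from 1482315 to 27928890 in S1 (median 2771315), with the 4 batch B libraries at 14966125 or more and batch A at 3527081 or less, and from 2790035 to 73449925 in P0 (median 5745780). The P0 libraries differed among themselves. The Pearson correlation of each with the mean of the other 5 lay between 0.697 (worm unknownB) and 0.903 (worm 9). The zygote of worm unknown5 came from an earlier single-end run and held 8 spike-in reads, and both batch B zygotes were sequenced in a run without S1 libraries, so run and stage cannot be told apart there. The quality table assigns these 2 zygotes to 1 worm and gives no stage for them. Within batch A, 15 S1 and 3 P0 libraries were sequenced in the same run in April, and results that change without the other libraries are given for this April run alone. The labels name worms but no separate cultures, so p-values measure only the spread between these libraries.

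Between S1 and P0, 6261 genes had enough reads to be tested, and 1684 of them (26.9%) were higher and 955 (15.3%) lower in P0, or 42.1% in either direction, with a change of over 1.5-fold and an adjusted p of less than 0.05 (edgeR quasi-likelihood test with batch as a covariate and Benjamini-Hochberg adjustment). Log2 fold changes are P0 minus S1 throughout, and levels are in CPM, counts relative to the library total after TMM scaling, which sets the bulk of the genes equal between libraries. The largest changes were mostly increases, with 420 higher and 209 lower genes between 4 and 8 log2 units and 197 higher and 22 lower genes beyond 8. The median over all tested genes was 0.26. When libraries were scaled by their spike-in reads instead, this median was 2.22, and 3146 genes were higher and 131 lower. The zygote of worm unknown5, with 8 spike-in reads, was left out of every spike-in scaled fit. With TMM scaling and without that zygote the median was 0.14, with 1552 higher and 1150 lower genes. With library size alone and all 25 libraries the median was 0.62, with 2250 higher and 694 lower genes. Every change is therefore relative to the bulk of the genes in each library and not an amount per cell, and in such whole-piece samples fewer cells of a type and less RNA per cell cannot be told apart. In the April run alone, 2024 genes were higher (28.3%) and 1488 lower (20.8%, together 49.2%) of 7144 tested, and 2114 of the 2639 genes called in all libraries were called in the same direction, with 1 in the opposite direction.

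**Figure D1:**
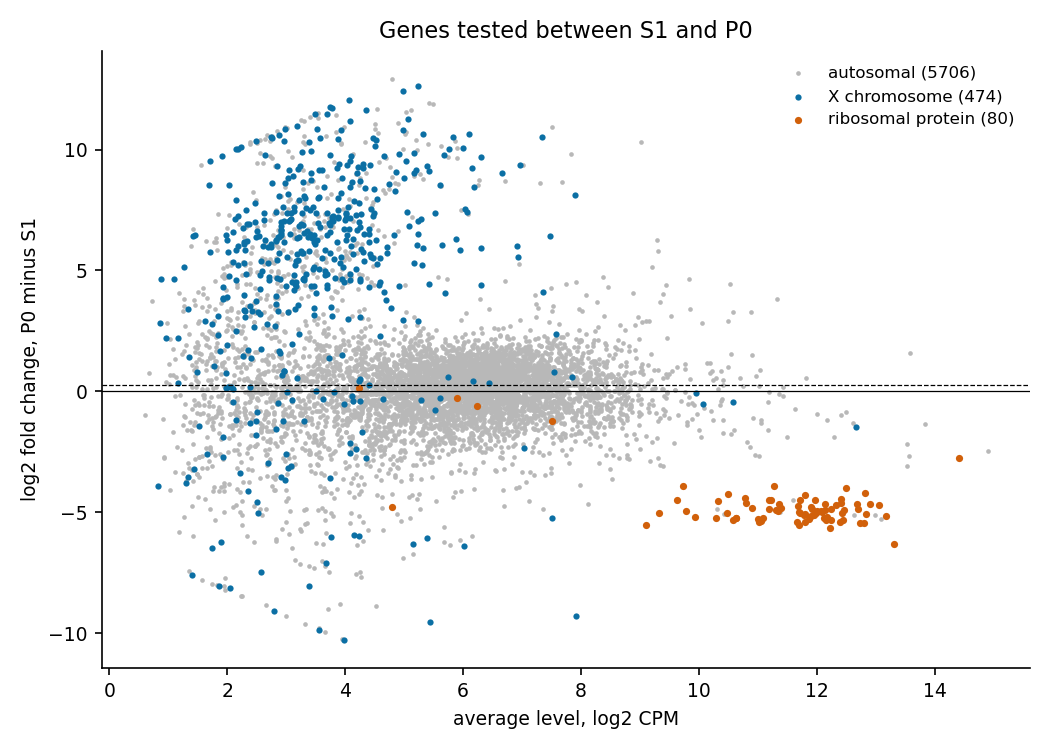
Each point is 1 of the 6261 tested genes, with its average level (log2 CPM) on the horizontal axis and its log2 fold change, P0 minus S1, on the vertical axis. Autosomal genes are grey, X-linked genes blue and ribosomal protein genes orange, and the dashed line marks the median of all genes, 0.26. The blue points lie mostly far above the line and the orange points far below it at high average level.

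The largest increases among genes with an average level of 5 or more (log2 CPM) were in genes close to absent from S1. C49F5.3 (WBGene00008207, WBcel235 chromosome X, 11982717 to 11983626, minus strand) lay at 10.4 CPM in the lowest, 56 in the median and 451 in the highest P0 library, and at 0 in the median and 0.165 CPM in the highest S1 library. It rose by 12.65 on the log2 scale (SE 0.49, edgeR adjusted p = 5.98e-18). rgs-11 (WBGene00004354, X, 14964553 to 14965976, plus strand), a regulator of G protein signaling, ran from 50.8 over a median of 163 to 259 CPM in P0 and did not pass 0.968 CPM in S1 (10.66, SE 0.57, adjusted p = 3.98e-15). For both genes every zygote was above every S1 library. The remaining 8 of the 10 largest increases at that level were flh-3, F53F8.3, F26G5.1, M151.7, T09B9.1, Y4C6A.3, cav-1 and R05G9.3, between 10.65 and 11.92. cav-1 encodes a caveolin and flh-3 a zinc finger factor of the FLYWCH family. Their S1 medians were all 0 and their groups did not overlap. All 10 genes passed the filter on low counts through the zygotes and were picked for their size. Their difference was thus in large part set in advance, and their p-values and separation are no further support. Ranges of the groups did not overlap for 434 tested genes with P0 above (6.93%) and for 83 with P0 below (1.33%).

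X-linked genes took a share of the increases far above their share of the genes. Of 476 X-linked genes tested, 358 rose and 24 fell, with a median log2 fold change of 5.79. On the autosomes 1326 of 5784 rose and 931 fell, with a median of 0.18, and the medians of single autosomes ran from 0.09 to 0.25. The X held 7.60% of tested genes, 21.3% of those that rose and 2.51% of those that fell, and it supplied 22 of the 50 largest increases and 101 of the 200 largest. Among the 358 risen genes, 284 had an S1 median of 0 and so passed the filter on low counts through the zygotes, which means that these had to differ. Over the same 358 genes the median of the P0 medians was 37.2 CPM. The risen autosomal genes mostly rose from a level already present, with a median S1 level of 40.7 CPM, a median P0 level of 102 CPM and a median log2 fold change of 1.62. The count of risen X-linked genes fell to 201 with the detection rate as a further covariate, and it was 549 in the April run alone. It fell to 106 with the unused libraries included. These hold the zygotes of worms 8 and 10, with spike-in shares of 97.4% and 94.2%.

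Detection was also counted with no filter on genes. Of 2725 protein-coding genes on the X, between 25 and 259 reached 1 TPM (the deposited levels, corrected for transcript length and library size) in an S1 library, with a mean of 132.1 ± 72.4 (SD, n = 19). In P0 this number ran from 430 to 864, with a mean of 680.0 ± 151.6 (n = 6), so the lowest zygote stood above the highest S1 library. Of 16457 autosomal coding genes, 5262.9 ± 512.1 reached 1 TPM in S1 and 6148.3 ± 702.6 in P0. Reads on X-linked genes made up 1.7 ± 0.9% of gene reads in S1 (0.0374 to 3.06%) and 4.2 ± 1.5% in P0 (2.00 to 5.73%), and here the groups overlapped.

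**Figure D2:**
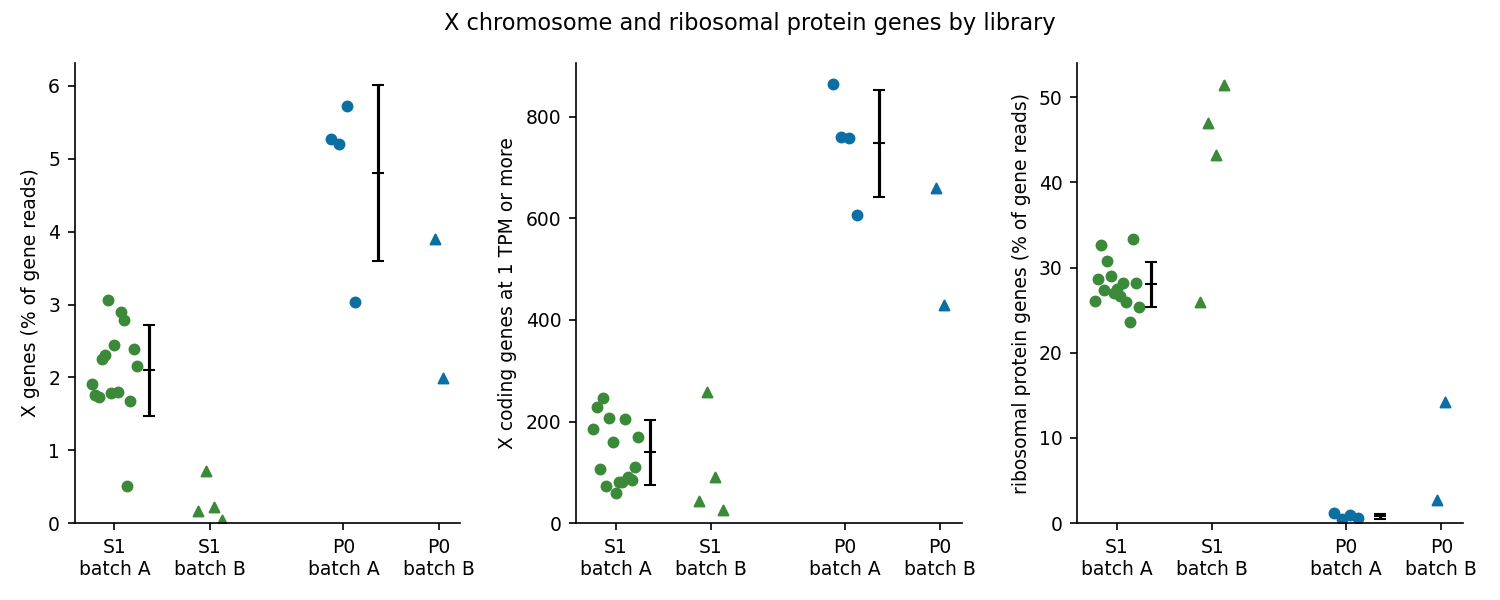
For each library, by stage and batch, the 3 panels plot the percent of gene reads on X-linked genes, the number of X-linked coding genes at 1 TPM or more, and the percent of gene reads on ribosomal protein genes. Circles are batch A, triangles batch B, and bars give the mean ± SD of batch A. X-linked coding genes number 25 to 259 in S1 and 430 to 864 in P0, and the ribosomal protein share is 23.6 to 51.4% in S1 and 0.515 to 14.3% in P0.

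The risen X-linked genes include several with known roles in germ cells. meg-3, which encodes an intrinsically disordered protein that scaffolds P granules (the RNA-rich bodies of germ cells) in the embryo, was at 34.5 CPM in the lowest, 278 in the median and 439 in the highest zygote and at most at 0.734 CPM in S1. It rose by 10.53 (SE 0.52, edgeR adjusted p = 8.46e-16), with no overlap. meg-1 (9.03) and meg-4 (8.69) rose with it. So did lin-15B, a repressor of germline genes in somatic cells (6.97), mbk-1, a kinase of the DYRK family (8.67), and ife-2, a cap-binding translation initiation factor (7.35). The Argonaute alg-1, which acts in the microRNA pathway, rose by 5.73 (SE 1.01, adjusted p = 3.45e-05), from an S1 median of 0 to between 18 and 73.5 CPM. Of the 24 X-linked genes that fell (40 without the zygote of worm 2), most were at 0 in the zygotes. In 19 of them the P0 median was 0, so these passed the filter largely through S1. They include let-2, a chain of type IV collagen, and cab-1, aqp-7, bar-1 and ceh-1. Another that fell, lbp-2, had a P0 median of 0.114 CPM. cab-1, lbp-2, aqp-7, bar-1 and ceh-1 are named here after their values were seen.

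Among genes at the same average level, cab-1, an X-linked gene known from neurons, had the largest decrease, and less abundant genes such as W03G11.4 (-10.27) fell further. cab-1 lay at 0, 23.4 and 259.6 CPM in the lowest, median and highest S1 library and at most at 0.47 CPM in P0, which is a difference of -9.53 (SE 1.71, adjusted p = 4.48e-05), and its groups overlapped at 0. After it, at that level, came C30E1.9, a noncoding RNA (-9.31), mek-5 (-6.71), let-2 (-6.39), ost-1, the worm SPARC protein (-6.34), the pseudogenes WBGene00023401 (-6.30) and WBGene00002221 (-6.21), rpl-3 (-6.30), R03D7.2 (-6.16) and lbp-2 (-6.07). Reads on pseudogenes can be shared with their parent genes, so these 2 values are uncertain.

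Basement membrane genes, made in the worm by muscle and somatic gonad cells, were among those lost. Of 12 listed, 6 had enough reads to be tested and 5 fell (emb-9, epi-1, let-2, nid-1 and ost-1), against 15.3% of all tested genes. Their median was -6.32 against 0.26 over all genes, and -3.16 under spike-in scaling. The P0 median was 0 for emb-9 and let-2 and 0.025 CPM for ost-1. These genes passed the filter on low counts largely through the S1 libraries, so their fall was in part set by the filter. let-2 ranged from 0 over a median of 29.2 to 534 CPM in S1 and from 0 over a median of 0 to 2.88 CPM in P0. Both groups reached 0, so its levels overlapped. The summed reads of the 12 genes took 0 to 0.159% of gene reads in S1 and 0 to 0.00292% in P0.

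Markers of the cells that surround the germ line moved in both directions. lag-2, the Notch ligand that the distal tip cell presents to the germ line stem cells, was at 0 in all 6 zygotes and reached 47.6 CPM in S1 (median 3.36). It held 838 reads over the 19 S1 libraries, 5 of which were at 0, so the groups overlapped. mig-6, a papilin of the distal tip cell, fell by 5.22 on the log2 scale, while hlh-2, a bHLH factor that other cells also use, rose by 6.43. nhr-67 was at 0 in every library of both groups. Summed over the 5 listed genes, distal tip cell markers took 0.000633 to 0.0415% of gene reads in S1 and 0.0108 to 0.0251% in P0. In P0 this sum came mostly from hlh-2 and from apx-1, which is also listed among the cell fate genes. mig-6 had a P0 median of 0 and reached 7.99 CPM there. The sum is therefore no measure of distal tip cell RNA in the zygotes. Of 9 gonadal sheath markers 5 were tested. The innexin inx-9 fell (-4.39), cam-1 (10.15) and kin-18 (1.20) rose, and the innexin inx-8 (-1.93) was not called. acy-4 and tnc-2 were at 0 in every library of both groups, and fkh-6 was at 0 in all zygotes and 15 S1 libraries. The list summed to 0.000884 to 0.0324% in S1 and 0.00832 to 0.107% in P0, where cam-1 alone lay at 86.3 to 272 CPM. Of 7 spermatheca markers 3 were tested and fln-1, a filamin, fell (-2.74), with 0.00880 to 0.222% of reads on the list in S1 and 0.00451 to 0.0451% in P0. None of the 5 tested markers of proximal sheath muscle, the 8 of intestine, the 2 of hypodermis or the 1 of sperm was called. The zygote of worm 2 had the highest share of intestine reads in P0, 0.267% against at most 0.0664% in the other 5. The part of these cells in any change was not tested.

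Germ line genes as such were present in both groups. The 10 listed markers took 0.111 to 0.396% of reads in S1 and 0.276 to 0.502% in P0. Of them 1 rose (10%) and 2 fell (20%), against 26.9% and 15.3% of all tested genes, as the single genes given further on show. Of 21 genes known to be transcribed first in the early embryo, 1 had enough reads for the test and it was not called.

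Transcripts of the cytoplasmic ribosome fell together. Of 81 ribosomal protein genes 80 were tested, 77 fell (against 15.3% of all tested genes) and none rose, with a median of -4.94 and, under spike-in scaling, of -3.61. rpl-3 (WBGene00004414, III, 3867854 to 3869587, plus strand), a protein of the large subunit, lay at 6925 CPM in the lowest, 8999.7 in the median and 51404 in the highest S1 library. In P0 it lay at 20.8, 105 and 1456 CPM, with every zygote under every S1 library and a difference of -6.30 (SE 0.59, edgeR adjusted p = 6.95e-10). Of the 77 genes, 20 had groups that did not overlap, against 1.33% of all tested genes with P0 below.

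Summed over the 81 genes, ribosomal proteins took 30.9 ± 7.7% of gene reads in S1 (n = 19, 23.6 to 51.4%) and 3.4 ± 5.4% in P0 (n = 6, 0.515 to 14.3%). The zygote of worm unknownB, of batch B, was at 14.3%, and the next highest, also of batch B, was at 2.77%. In batch A alone the shares were 28 ± 2.6% and 0.8 ± 0.3%. Batch B alone, with 4 S1 and 2 P0 libraries, gave a median of -2.88 over the 80 genes and called 2 of them.

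The ribosomal protein genes that did not fall were copies. rpl-11.1, on chromosome V, fell by 5.28 on the log2 scale, while its X-linked copy rpl-11.2 was at a median of 9.42 CPM in S1 and 24.9 in P0 (-0.26, adjusted p = 0.814). In the same way rpl-25.2 on chromosome I fell by 4.67, and X-linked rpl-25.1 had medians of 5.42 and 8.65 CPM (0.16, adjusted p = 0.895). rpl-41.1 (-0.61) was not called either, but was without the zygote of worm unknownB (-0.92). Reads of near-identical copies can be counted for either one, so the values of these genes are uncertain.

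Other parts of the translation machinery fell by less. Over all tested genes 15.3% fell and 26.9% rose. Of 29 tested translation factors 20 fell and 1, ife-2, rose (median -1.51), and of 20 cytoplasmic tRNA synthetases 18 fell (median -1.09). Of 70 mitochondrial ribosomal proteins 34 fell (60 in the April run alone) and none rose (median -1.06). Under spike-in scaling these 3 medians turned positive, at 0.23, 0.65 and 0.71, though all stayed under the 2.22 of all genes. eef-2, the elongation factor that moves the ribosome along the mRNA, was at 6506, 11865 and 41153 CPM in the lowest, median and highest S1 library and at 1147, 2469 and 2930.4 CPM in P0. The groups did not overlap, and eef-2 fell by 2.67 on the log2 scale (SE 0.46, adjusted p = 2.6e-05). eef-1A.1, which delivers charged tRNAs, fell by 2.48 (adjusted p = 2.46e-05), and mrps-27 (-2.40) and mrpl-22 (-3.27) of the mitochondrial ribosome had groups that did not overlap. Of the cap-binding factors ife-1 (-1.51) and ife-3 (-1.57) fell and ife-2 rose, but ife-3 was at 0.10 under spike-in scaling and ife-1 at 1.33 with the unused libraries included.

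Ribosome assembly genes depended on 1 zygote. Of 24 tested nucleolar and RNA polymerase I genes 10 fell and 1 rose (median -0.75), against 15.3% and 26.9% of all tested genes. Without the zygote of worm unknown5 18 fell, with a median of -1.94. Under spike-in scaling, also without that zygote, the median was -0.06. nol-6, needed for small subunit processing, fell from a median of 92.1 to 4.81 CPM (-3.19, adjusted p = 7.68e-07), and fib-1, fibrillarin, from 2245 to 446 CPM (-1.59, adjusted p = 0.00679). Of the 8 subunits of the cytosolic chaperonin CCT 3 fell (median -0.75), against 15.3% of all tested genes. Without worm unknown5 5 fell, and under spike-in scaling, also without that zygote, the median was 0.98.

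**Figure D3:**
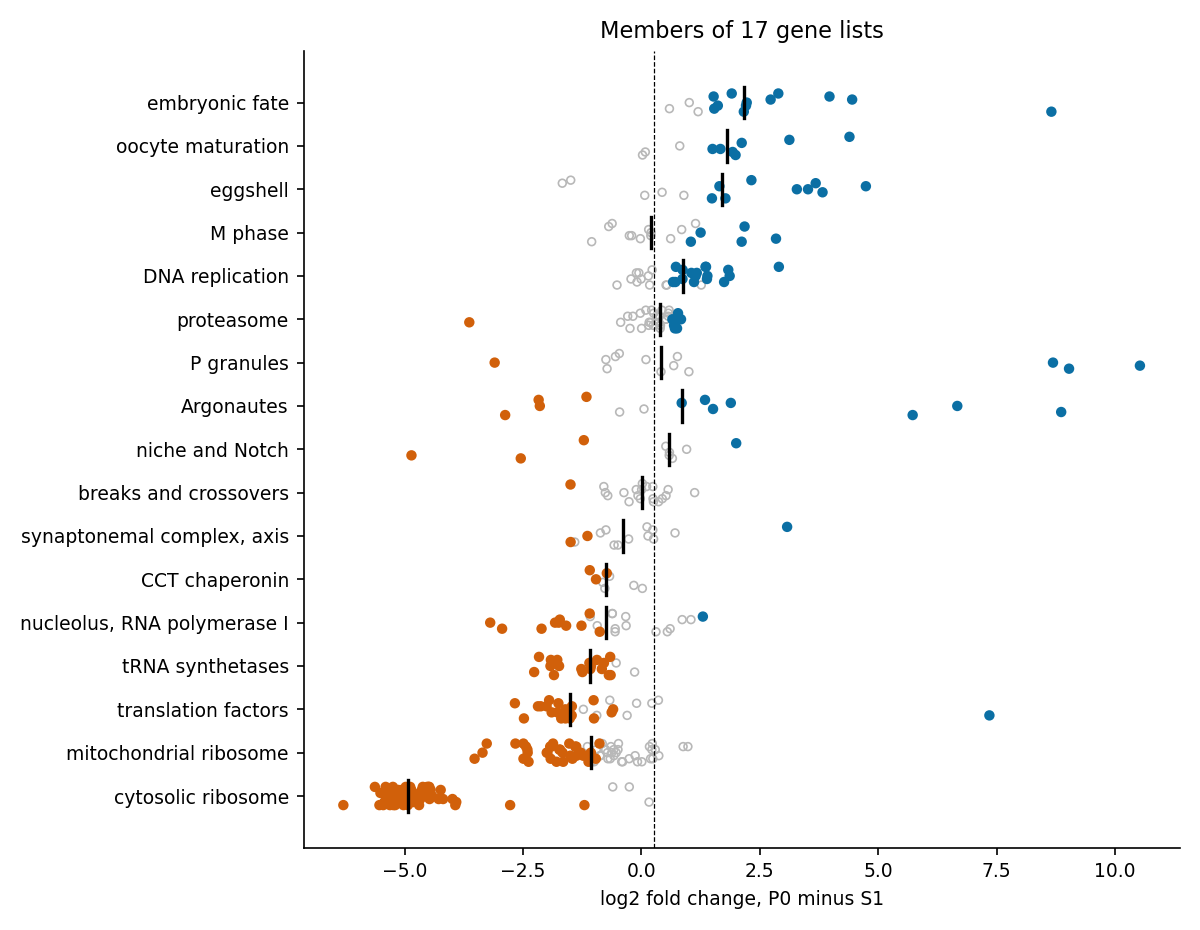
Log2 fold changes, P0 minus S1, of the tested members of 17 gene lists, 1 point per gene. Open grey points did not pass the test, blue points rose and orange points fell, black bars are list medians and the dashed line is the median of all genes at 0.26. Ribosomal proteins stand lowest with a median of -4.94 and embryonic fate factors are among the highest with 2.16.

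Genes known to act in the early embryo were higher in the zygote. Of 15 genes for cell fate factors 12 rose (26.9% of all tested genes rose) and none fell, with a median of 2.16. nos-2, a Nanos protein needed in the primordial germ cells, was at 399, 889 and 1328 CPM in the lowest, median and highest P0 library, and at 0, 0.734 and 18.3 CPM in S1 (8.66, SE 0.65, adjusted p = 5.63e-12). pos-1, a zinc finger repressor of maternal mRNAs, was at 2471, 3216 and 16864 CPM in P0 and at 11.6, 123 and 1277 CPM in S1 (4.45, SE 0.37, adjusted p = 4.86e-11). Both had no overlap between groups. The Wnt ligand mom-2 (3.97) and the polarity mediator mex-5 (2.22) were also higher in every zygote than in any S1 library. spn-4 (2.89), mex-6 (2.73) and pie-1, which keeps the germ lineage transcriptionally silent (1.61), rose as well, though the pie-1 promoter also drives the transgene. The Notch receptor glp-1, translated in the embryo from maternal mRNA, had a P0 median of 435 CPM and an S1 median of 219.7 CPM, with overlap, and did not pass (0.59, adjusted p = 0.13), though it did without worm unknownA (0.79) or worm unknownB (0.83). The batches went opposite ways for glp-1. In batch A all 4 zygotes (419.8 to 729 CPM) were above all 15 S1 libraries (139 to 387 CPM), and in batch B both zygotes (85.2 and 88.7 CPM) were below all 4 S1 libraries (132 to 401 CPM).

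Of 10 tested genes of oocyte growth and maturation 7 rose (26.9% of all tested genes rose) and none fell (median 1.80). The RNA-binding protein puf-5 went from a median of 92.9 CPM to 1306 CPM (4.39, adjusted p = 4.96e-08) and oma-2, required for meiotic maturation, from 183 to 1457 CPM (3.12, adjusted p = 7.9e-09), both without overlap. Its partner oma-1 rose by 2.12, and lin-41, which holds oocytes back from maturing, did not pass (0.81, adjusted p = 0.257).

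The eggshell genes depended on 1 library. With all libraries 9 of 14 rose, against 26.9% of all tested genes, and none fell (median 1.71). Without the zygote of worm unknown5 5 rose, with a median of 0.45. egg-1, a receptor of the oocyte surface needed for fertilization, was at 5351 CPM in that zygote and at 18.1 to 349 CPM in the other 5, against 3.49 to 329.7 CPM in S1. Its log2 fold change of 3.68 became -0.04 without that zygote. egg-2 went from 2.32 to 0.01 and cpg-2, a chitin-binding proteoglycan, from 3.28 to 0.92. The genes that kept their calls without it were cpg-1 (3.82 to 2.66), cpg-3 (4.74 to 2.50), gna-2, which makes a precursor of chitin (3.52 to 3.51), egg-3 (1.77 to 1.39) and mbk-2 (1.65 to 1.85). In the April run alone 5 eggshell genes rose, with a median of 0.35.

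**Figure D4:**
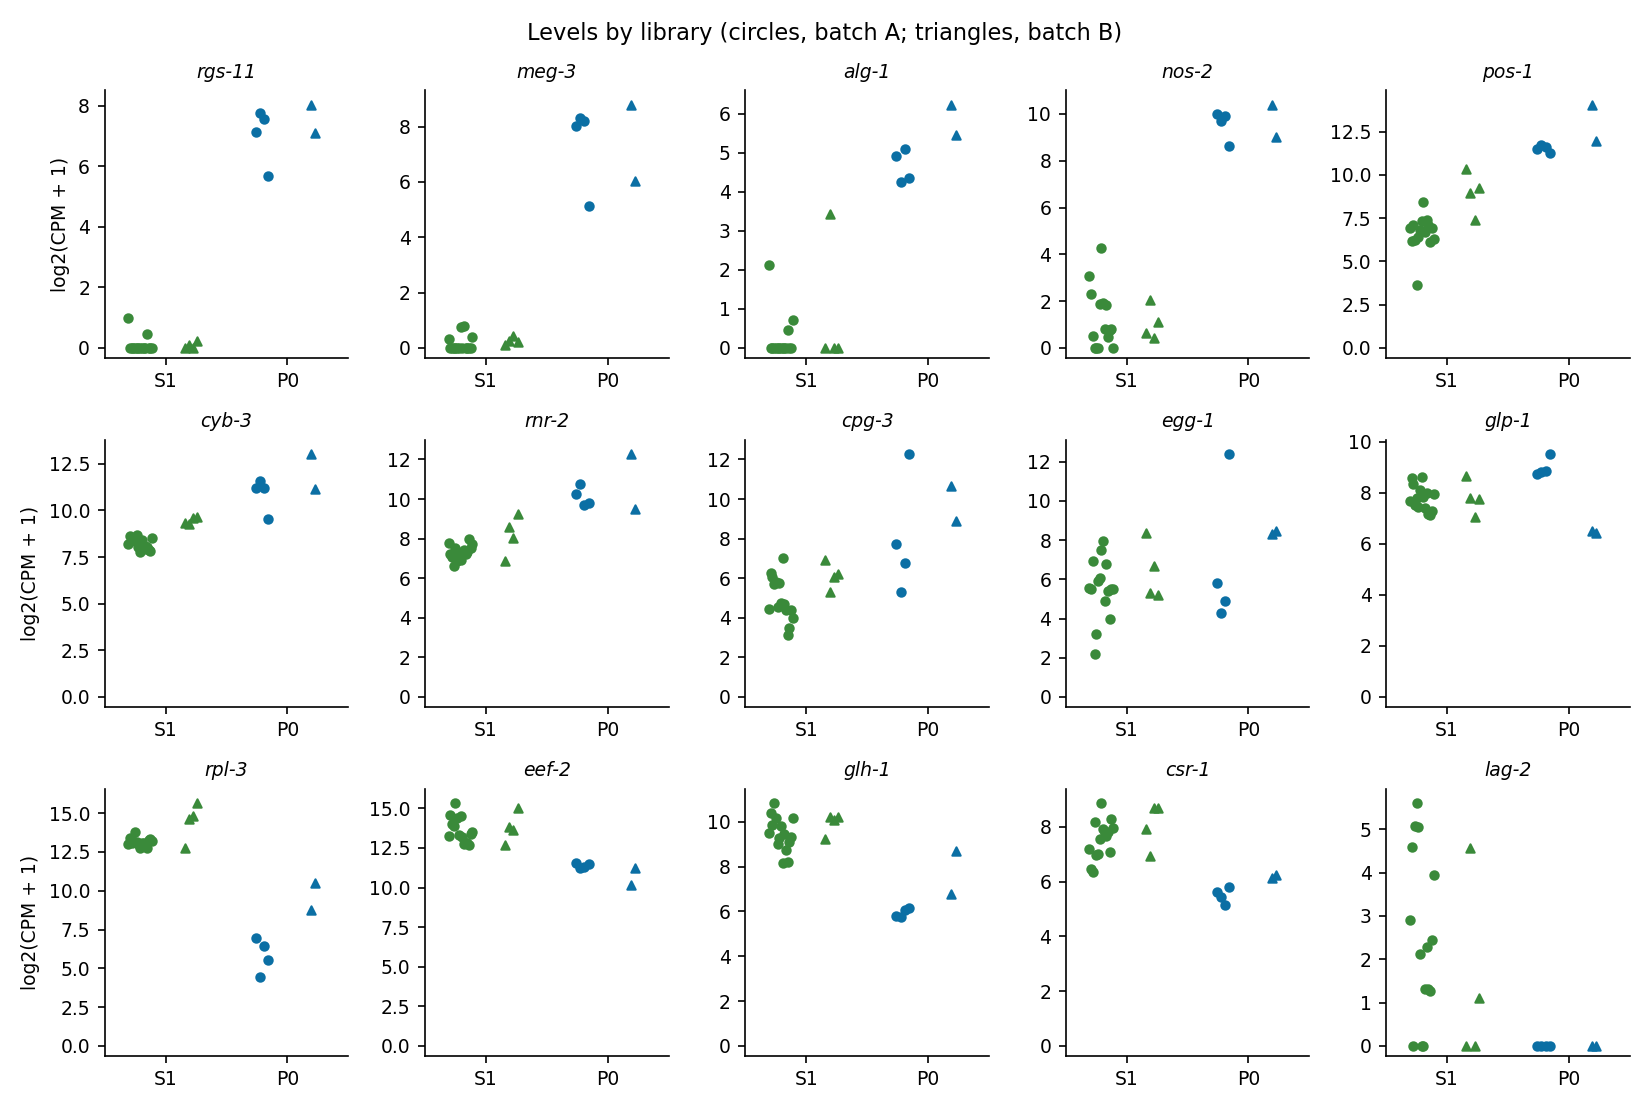
Levels, log2(CPM + 1), of 15 genes in each S1 and P0 library, with circles for batch A and triangles for batch B. rgs-11, meg-3, nos-2 and pos-1 separate the groups with the zygotes above, and rpl-3, eef-2 and csr-1 separate them with the zygotes below. egg-1 has 1 zygote far above the rest, and lag-2 is at 0 in all 6 zygotes.

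Of 13 tested P granule genes 3 rose, meg-1, meg-3 and meg-4, and glh-1 fell (median 0.41), which is 23.1% and 7.69% against 26.9% and 15.3% of all tested genes. glh-1, a Vasa helicase of the core P granule, had an S1 median of 716 CPM (286 to 1820.2) and a P0 median of 67.8 CPM (53.3 to 414), with overlap (-3.10, SE 0.45, adjusted p = 1.95e-06). Its paralog glh-2 had medians of 115 and 100.1 CPM (0.09, adjusted p = 0.821).

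Genes of small RNA pathways rose and fell. Of 13 tested Argonaute genes 7 rose and 4 fell (median 0.85), which is 53.8% and 30.8% against 26.9% and 15.3% of all tested genes. Beside X-linked alg-1 the risen genes were alg-2, its partner in the microRNA pathway (8.87), vsra-1 (6.67), ergo-1, which binds a class of 26G small RNAs (1.89), alg-5 (1.51), hrde-1 (1.34) and wago-1 (0.85), and the calls of the last 2 were lost without the zygote of worm unknown5, both turning negative in batch B alone (-1.12 and -0.39). alg-2 was at 46.4 to 186 CPM in P0 and at most at 2.95 CPM in S1. csr-1, whose small RNAs match expressed germ line genes, was at 79.9, 219 and 465 CPM in S1 and at 34.1, 51.4 and 74.5 CPM in P0, without overlap (-2.15, SE 0.34, adjusted p = 8.86e-06). ppw-2 (-2.88), wago-4 (-2.17) and ppw-1 (-1.16) fell with it, wago-4 losing its call without worm unknownA (-1.96) or worm unknownB (-2.06). prg-1, the Piwi protein, did not pass (-0.46).

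Stem cell regulators of the distal gonad were not all lower in the zygote. Of 9 niche and Notch pathway genes 3 fell and 1 rose. fbf-2, a PUF protein that keeps germ cells mitotic, had a median of 205 CPM in S1 and 6.84 CPM in P0 (-4.86, SE 0.75, adjusted p = 5.68e-06), with a lowest S1 level of 0.615 CPM and a highest P0 level of 17.8 CPM, so the groups overlapped. Its near-identical copy fbf-1 fell from 187 to 36.1 CPM (-2.55), and reads the copies share could be counted for either. puf-8 fell by 1.22 relative to the bulk of the genes and had a spike-in scaled value of 0.73. The direct Notch targets sygl-1 (0.59, adjusted p = 0.352) and lst-1 (0.51, adjusted p = 0.344) did not pass, with higher medians in P0. mex-3, a KH-domain repressor, rose (2.00, adjusted p = 1.03e-06).

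Lists of meiosis were near or below the shares of all tested genes, 26.9% rising and 15.3% falling. Of 8 meiotic entry genes gld-3 (2.13) and gld-4 (1.13), both acting in cytoplasmic polyadenylation, rose and none fell, and gld-1 (-0.16) and gld-2 (0.10) did not pass. Of 14 genes of the synaptonemal complex and chromosome axis 1 rose and 2 fell, with a median of -0.38 that was 1.5 under spike-in scaling. lab-1, which protects cohesion on chromosome arms, rose (3.08, adjusted p = 2.79e-07), and syp-1, of the central region (-1.50), and the axis gene htp-1 (-1.14) fell, both with positive values under spike-in scaling (0.75 and 1.14). The call of htp-1 was lost without any one of the zygotes of worms 2 (-1.09), 4 (-1.05), 9 (-1.25), unknown5 (-1.08) and unknownB (-1.03), and that of syp-1 in the April run alone (-0.89). Of 20 genes of double-strand breaks and crossovers 1 passed, dsb-3 (-1.52, and 0.89 under spike-in scaling), and the median was 0.01. Of 10 genes of pairing and the nuclear envelope bridge zim-1, zyg-12 and sun-1 rose (30%) and zim-3 fell (10%).

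DNA replication genes were higher in the zygote by a moderate amount. Of 30 tested 17 rose and none fell (median 0.87). rnr-2, the small subunit of ribonucleotide reductase, was at 714, 1064 and 4944 CPM in P0 and at 95.6, 161 and 610.3 CPM in S1, without overlap (2.9, SE 0.27, edgeR adjusted p = 6.44e-10). dut-1 (1.86) and tyms-1 (1.75), also of nucleotide supply, and the sliding clamp pcn-1 (1.38) rose too, as did mcm-3, mcm-5, mcm-6 and mcm-7 of the replicative helicase. Among 17 M phase genes 5 rose (29.4%, against 26.9% of all tested genes) and none fell. The B-type cyclin cyb-3 had a P0 median of 2362 CPM (730.0 to 8314) and an S1 median of 339 CPM (221 to 809.9) with a small overlap (2.84, SE 0.23, adjusted p = 3.55e-11). cyb-1 (2.18), cyb-2.2 (2.12), cdk-1 (1.25) and air-1, an Aurora kinase (1.04), rose beside it. Of 7 tested G1 and S phase regulators efl-1 (1.11) and lin-35 (1.00) rose (28.6%, also near that background), and cyclin E, cye-1, did not pass (-0.29).

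Other maternal functions gave mixed counts. Of 15 polarity genes 3 rose (5 without worm unknown5), par-3 (1.28), mlc-4 and ani-2, and par-2 did not pass (-0.15). Of 24 centrosome and spindle genes 6 rose (3 without worm 4) and 7 fell (median -0.07). Of 15 genes of protein turnover at the egg-to-embryo transition 7 rose and none fell (median 0.69, and 4 rising without worm 9), and of 33 proteasome genes 7 rose (3 without worm unknownA, 4 without worm 4) while rpn-6.2 fell (-3.64). Of 18 chromatin genes 6 rose (3 without worm unknown5) and the linker histone hil-2 fell (-1.82), and the risen ones include his-72, a histone H3.3 gene (1.71). Of 18 genes of deadenylation and RNA decay 5 rose, among them the deadenylase ccr-4 (1.95), with 2 left without worm 4 and 3 without worm 2 or worm 9, and parn-1 (-3.38) and xrn-2 (-1.83) fell. The share of risen genes in these lists lay on either side of the 26.9% of all tested genes, of which 15.3% fell.

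Genes near 0 in one group and well detected in every library of the other were counted in both directions. Under 1 CPM in every S1 library and at 10 CPM or more in every zygote were 64 genes, 29 of them (45.3%) on the X, against 7.60% of tested genes. They passed the filter on low counts through the zygotes, so they had to differ. The reverse pattern was held by no gene. It asked for 10 CPM in each of 19 S1 libraries, against 6 zygotes, so the counts are not alike. With S1 judged by its median, 268 genes were under 1 CPM in S1 and at 10 CPM or more in every zygote, 56.7% of them on the X. A looser rule for the reverse, a P0 median under 1 CPM and an S1 median of at least 10 CPM, was met by 86 genes, 70 of them called and 10 on the X (11.6%), and this count cannot be set against the 268. Besides rgs-11 and meg-3 the 64 include nrde-3, an Argonaute that carries small RNAs into the nucleus, and sea-1, a T-box factor that signals autosome number in sex determination, both named after their values were seen.

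More genes were detected in a zygote than in an S1 piece. At 1 TPM or more 5656.2 ± 637.0 genes were found in S1 and 7021.3 ± 885.9 in P0, a difference of 1365.2 genes (exact permutation test within batch, two-sided p = 1.72e-05, the smallest it can give). Counted at 1 read or more instead, the difference was 1339.2 genes (exact permutation p = 0.00225). After drawing 1482315 reads from each library, also at 1 read or more, it was 1211.6 genes (exact permutation p = 0.000877). In the April run alone the difference was 1879.2 at 1 TPM (exact permutation p = 0.00123). With the libraries that the quality table does not mark as used included, the difference at 1 TPM was -200.4 (permutation test, 100000 arrangements, p = 0.765). Among these, the zygotes of worms 8 and 10 held only 31625 and 21350 reads on genes, with spike-in shares of 97.4% and 94.2%. The S1 library of worm 23 had an intestine share of 23.9%. The value of -200.4 thus rests in part on libraries of poor quality.

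The stages between S1 and P0 place these changes along the gonad. Batch A libraries of pachytene (S2), diplotene (S3) and early diakinesis (S4) segments and of -3, -2 and -1 oocytes were set beside S1 and P0 as a description, since the genes were chosen on the S1 and P0 libraries. The share of the S1 to P0 difference covered at a stage was taken on mean log2(CPM + 1). The 358 risen X-linked genes had covered a median of 4.31% of their S1 to P0 difference at S2 and 83.9% at S3. For 353 of them (98.6%) the largest single step was the one into S3. The risen autosomal genes were spread out, with 24.5% covered at S2, 70.7% at S3, and 299 genes (22.7%) taking their largest step into P0. Genes that fell had covered 19.6% at S2, 49.7% at S3 and 91.3% in -3 oocytes.

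On the log2 scale ribosomal proteins fell late, while most of the drop in their share of gene reads came by S3. The 79 genes with the same direction in batch A had covered a median of 8.87% at S2, 30.9% at S3, 57.2% at S4 and 87.0% in -3 oocytes, and 58 of them took their largest step into that oocyte. Their share of gene reads averaged 28% in S1, 21% in S2, 9.20% in S3, 3.34% in S4, 1.08% in -3 oocytes and 0.82% in P0. X-linked coding genes at 1 TPM averaged 139 in S1 and 172 in S2, then 786 in S3 and 748 in P0.

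**Figure D5:**
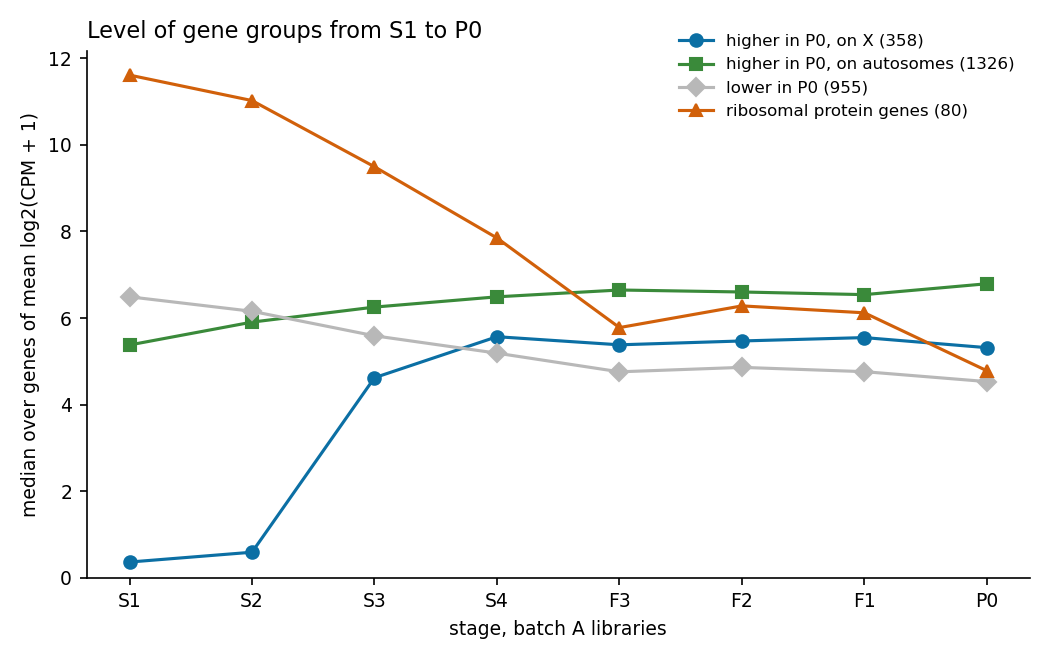
Median over the genes of each group of their mean level, log2(CPM + 1), in batch A libraries of each stage from S1 to P0, with F3, F2 and F1 for the -3, -2 and -1 oocytes. The groups are X-linked genes higher in P0 (358), autosomal genes higher in P0 (1326), genes lower in P0 (955) and ribosomal protein genes (80), the first 3 chosen on S1 and P0. X-linked genes rise between S2 and S3 and stay level, and ribosomal protein genes drop from S2 to F3.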

How the data were processed

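The counts are reads per gene that the authors obtained with HTSeq after trimming with Trim Galore and alignment to WBcel235 with HISAT2, deposited without normalization on the WormBase WS291 annotation; versions are not given in the sources used here. TPM values were estimated by the authors with Salmon. The fractions of the deposited quality table, together with its batch and used columns, are the authors' shares of reads per library.

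Of 46927 genes, 797 were left out (mitochondrial genome, rRNA, or a TPM correlation above 0.99 with an msp gene, which marks sperm). The rest were tested with edgeR 4.0.16 in R 4.3.3 (filterByExpr at a minimum count of 10, TMM, robust quasi-likelihood F test, batch as covariate) and called past 1.5-fold with an adjusted p below 0.05. The study's detection rate covariate was an alternative here, because the number of detected genes itself differs between the stages. An SE is the log2 fold change over the square root of F. Permutations, shares and figures used Python 3.11.15, numpy 2.4.6, pandas 2.3.3, scipy 1.17.1 and matplotlib 3.10.9. The edgeR and DESeq2 fits were tested on simulated counts, and the permutation test on made-up values with a shift. Positions are from the Ensembl 115 annotation of the same assembly.

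Members and gene lists were chosen with earlier results of these data known. The genes named are the 10 largest called changes per direction with an average level of 5 or more (log2 CPM), the key genes and up to 4 members with the smallest adjusted p of each list, paralog pairs and markers. msh-4, cdc-45, fen-1, cdc-20, nol-1, nol-5, vars-2, eif-5, prg-2, wago-3, ntl-1, mig-24 and ssp-11 matched no gene. Alternatives were DESeq2 1.42.0, other normalizations, filters and library sets. The April run alone, the batch B zygotes summed and library size alone were chosen after seeing the data.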

Additional observations from a re-analysis of the deposited data

Results flagged for a closer look

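In 24 of 130 measures and genes checked, 1 zygote stood apart from the other 5, with its gap to the nearest of them, given as a share of the range of all 6, above Dixon's 95% critical value, which chance passes in about 1 in 20 groups. The cause was not tested.

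Worm unknownB's zygote stood apart most often. Its ribosomal protein share of 14.3% against 0.515 to 2.77% gave a gap of 0.836 of the range, and it was highest for mek-5 (0.894), WBGene00002221 (0.658), glh-1 (0.650) and pgl-1 (0.731) and lowest for syp-1 (0.740), lin-15B (0.640), hlh-2 (0.788) and ceh-39 (0.803). The zygote of worm unknownA, the other of batch B, was highest for pos-1 (0.756), oma-1 (0.675), oma-2 (0.660), htp-1 (0.652) and mig-6 (0.648) and lowest for eef-2 (0.776), mrps-27 (0.743) and lin-41 (0.649).

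In the zygote of worm 2 were the highest shares of intestine marker reads, 0.267% against 0 to 0.0664% (0.751), and of spermatheca marker reads, 0.0451% against 0.00451 to 0.0189% (0.646). It alone held reads of inx-9, at 6.06 CPM (1.000), and was highest for inx-8 (0.918). The zygote of worm unknown5 was highest for rme-2 (0.701) and wago-1 (0.678), and that of worm 9 for WBGene00023401 (0.870).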

How the results depend on the processing

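The number of genes called, 2639, was 4443 with no low-count filter, 1356 with batch and detection rate, 1363 with all libraries with a batch, 541 in batch B alone, 4765 with all 8 stages in one fit, and 2412 to 3012 when 1 zygote was left out. The number of X-linked genes called higher, 358, was 549 in the April run alone, 777, 201, 106, 214 and 725 under the same 5 settings, and 357 to 465 with 1 zygote left out. The ribosomal protein genes called lower, 77, were 2 in batch B alone and 76 to 78 with 1 zygote left out. The difference in detected genes was -200.4 with all libraries with a batch and 1141.4 to 1622.0 with 1 zygote left out. Spike-in scaling also leaves out worm unknown5. Under it the values of mrpl-50 (0.31), ife-3 (0.10), fars-1 (1.04), puf-8 (0.73), syp-1 (0.75), htp-1 (1.14), dsb-3 (0.89) and klp-18 (0.94) turned positive, and 78 of 116 named genes kept direction and side of the threshold. With all libraries with a batch ife-1 turned to 1.33. In the April run alone rme-2 (-0.39), egg-1 (-1.07) and egg-2 (-0.19) turned, as did wago-1 (-0.39) and hrde-1 (-1.12) in batch B alone and mei-1 (-0.40) with batch and detection rate. With 1 zygote left out rme-2 ran from -0.024 to 1.88 and egg-1 from -0.037 to 3.93, both lowest without worm unknown5. Batch B alone kept 48 of 114 named genes (64 calls lost), batch and detection rate 90 of 116 (25 lost), all libraries with a batch 93 of 109 (14 lost), DESeq2 107 of 116 and median-of-ratios factors 115. The causes were not tested. No paired analysis was possible because the labels name no worm with both a used S1 and a used P0 library.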

Other observations

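Several gene families outside the lists, chosen after their values were seen, were mostly higher in the zygote. Over all tested genes 26.9% rose and 15.3% fell. Of 26 tested nuclear hormone receptor genes (nhr) 18 rose and none fell, with a median log2 fold change of 4.57 against 0.26 over all genes, and 3 of the 26 are on the X. Of 12 homeobox genes named ceh 8 rose and 1 fell (median 7.21), among them ceh-39, an X-linked signal of sex determination (8.40), and 6 of the 12 are on the X. Of 9 skr genes, Skp1-like parts of ubiquitin ligases, 6 rose (median 3.81), and near-identical copies make their single values uncertain. Of 17 vha genes, subunits of the proton pump of acidic organelles, 11 rose and none fell (median 1.53), as did 8 of 11 tbc genes of Rab regulation (1.65), 5 of 7 epg genes of autophagy (1.62) and 5 of 8 sqv genes of chondroitin synthesis (1.6). Of 7 coq genes of ubiquinone synthesis 4 fell and none rose (median -1.31). Genes with reads in the zygotes alone passed the filter only there, so part of the nhr, ceh and skr genes had to differ. Among the skr genes, skr-7, skr-15 and skr-16 had no reads in S1.

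In some pairs of paralogs 1 member passed the test and the other did not, and the differences within pairs were not tested. The alpha-tubulin gene tba-1 rose (1.17) and tba-2 had 0.27, and the eIF5A gene iff-1 fell (-2.13) and iff-2 had 0.22. eef-1A.1 fell by 2.48 on the log2 scale and eef-1A.2 had -0.30, and nos-2 rose by 8.66 and nos-3 had -0.44. In other pairs both passed in the same direction, such as oma-1 and oma-2, mex-5 and mex-6, meg-3 and meg-4, and fbf-1 and fbf-2.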
